A study of Populus x canadensis with 12 samples.

Results

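In poplar leaves, 226 genes had transcript levels that were high under severe drought and near the watered control under moderate drought. They are 0.547% of the 41335 genes in the deposited table. They were chosen on log2(RPKM + 1), where RPKM counts the reads of a gene for each kilobase of its model in every 1000000 reads of the library. A gene was taken when its mean under moderate drought (D1) lay less than 0.5 from that of the control (C) and its mean under severe drought (D2) was at least 3 above the control. Its lowest D2 value also had to exceed the highest of the 8 C and D1 values. Because these stage values chose the genes, every difference between stages given for them is a description, with no test. Tests are given for differences between the hybrids and for genes beside the chosen ones. The choice did not use the hybrid labels. It did use the values of every plant, among them the lowest D2 value, so the hybrid tests are not independent of it.

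The leaves came from 12 single plants of Populus x canadensis, which were rooted greenhouse cuttings of hybrids 89 and 85 between a Populus deltoides mother and a Populus nigra father. The stages were C (watered controls), D1 (moderate drought) and D2 (severe drought), with 2 plants of either hybrid in every stage. The labels name 8 and 13 days without water and do not tie these periods to the stage names. Each library was made from 1 plant with its own clone number, so the spread between replicates is that between plants of 1 hybrid. Only 2 hybrids were sampled, and the same C plants served as the baseline for D1 and D2. The labels used here give neither plant age nor the day of harvest, so an effect of time and an effect of water loss cannot be told apart.

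When a poplar leaf loses water, abscisic acid closes its stomata, and photosynthesis and growth slow. As the loss goes on, leaf cells of many plants switch on genes for protective proteins such as dehydrins, other late embryogenesis abundant proteins and chaperones, and for sugars that stabilise membranes. Some such genes are silent in watered tissue and answer to strong dehydration. The deposited table does not pair its gene IDs with names, and no annotation or gene sequence was used here. No function is therefore given to any ID, leaf marker genes could not be looked up, and the tissue rests on the labels.

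The reads per library ranged between 2534325 and 10509089 in C, between 3181833 and 4847233 in D1 and between 2259634 and 3931067 in D2. The total differed 4.65-fold between the deepest library, a control, and the shallowest, a D2 library. Replicate 1 of hybrid 89 in D2 stood apart from the other D2 libraries. Across the 24117 genes tested, which reached 1 RPKM in 4 or more libraries, it correlated with the rest of D2 at a mean of 0.862, and the same mean was 0.903 to 0.915 for the remaining D2 libraries. Results that rest on it are given below with and without it.

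The 226 genes together took a small part of the leaf RNA until severe drought. In C they held 0.0923% and 0.0942% of the reads of the 2 hybrid 89 plants and 0.103% and 0.112% in hybrid 85. In D1 the shares were 0.112% and 0.101% in hybrid 89 and 0.124% and 0.110% in hybrid 85. In D2 they were 5.40% and 2.19% in hybrid 89 and 2.06% and 1.54% in hybrid 85. The shares of C and D1 overlapped and all 4 D2 shares lay far above them. The mean share was 2.80 ± 1.76% in D2 and 0.1005 ± 0.00917% in C (SD, n = 4 each), a ratio of 27.8, and the ratio was 19.2 without replicate 1 of hybrid 89. In a leaf made of many cell types, more cells that hold a transcript and more of it per cell cannot be told apart.

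**Figure D1:**
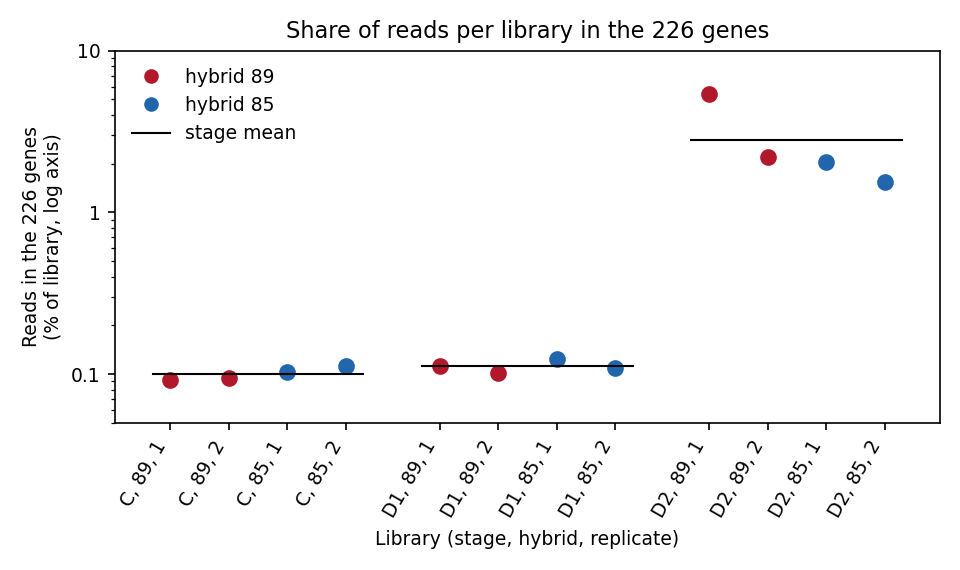
Share of each library's reads that fell in the 226 genes, in percent on a log axis. Points are libraries, coloured by hybrid, and lines are the stage means (n = 4). The C and D1 points lie between 0.0923% and 0.124%, and the D2 points between 1.54% and 5.40%.

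Most of the genes were barely read in watered leaves. The median gene had a mean of 0.685 RPKM in C, 0.829 RPKM in D1 and 46.4 RPKM in D2, while the median of all genes tested was 7.72 RPKM in C and 8.28 RPKM in D2. The C mean was under 1 RPKM in 123 genes, 1 to 10 RPKM in 80 and at least 10 RPKM in 23. On the log2(RPKM + 1) scale, where the added 1 RPKM shrinks the change of low genes, the difference between D2 and C had a median of 3.84 and reached 9.27. It was at least 4 in 99 genes, at least 5 in 40 and at least 6 in 13. None of the 226 was among the 500 genes of highest mean RPKM in C or in D1, and 23 were among the 500 highest in D2. By library, 38 and 18 of them were among the 500 highest in the D2 plants of hybrid 89, and 17 and 14 in those of hybrid 85.

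**Figure D2:**
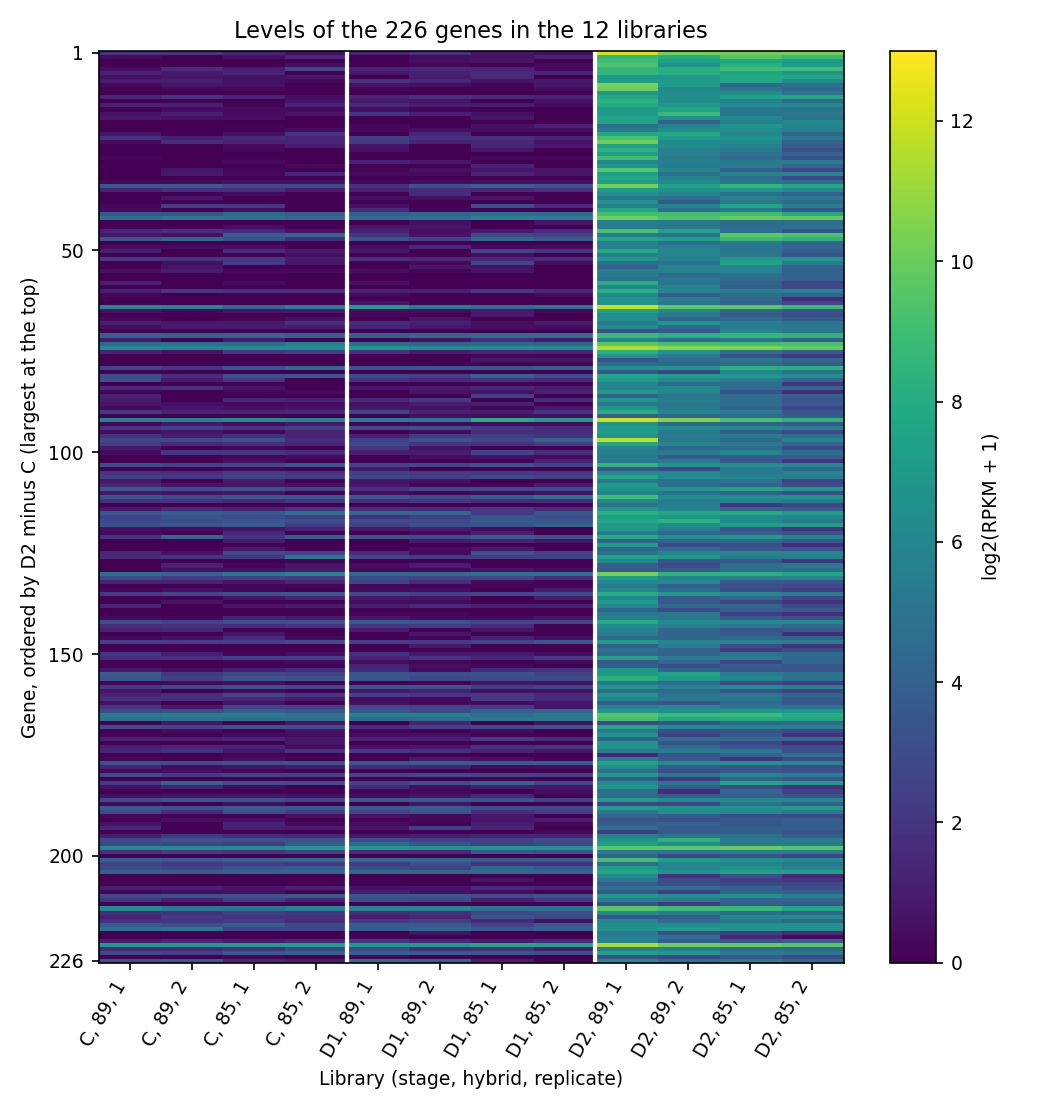
Level of each of the 226 genes as log2(RPKM + 1) in the 12 libraries, with genes ordered by the difference between D2 and C and libraries by stage, hybrid and replicate. The 4 columns on the right are D2, and the column of hybrid 89, replicate 1, holds the highest D2 value in 153 genes.

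The 5 genes with a difference of at least 7 on the log2 scale were Potri.012G033900.1, Potri.013G011700.1, Potri.015G099200.1, Potri.006G058600.1 and Potri.010G142800.1. Potri.012G033900.1 (chromosome number 12 in its ID, coding length 906 bp) had 2.88 and 3.05 RPKM in hybrid 89 and 1.37 and 0.417 RPKM in hybrid 85 in C. In D1 it had 1.37 and 2.50 RPKM in hybrid 89 and 0.694 and 0.345 RPKM in hybrid 85. In D2 it had 4494 and 1244 RPKM in hybrid 89 and 1109 and 1239 RPKM in hybrid 85. Of its D2 plants 3 thus lay close together, and the first plant of hybrid 89 lay apart above them. Its mean was 2021 ± 1649 RPKM in D2 and 1.93 ± 1.26 RPKM in C (SD, n = 4 each), a ratio of 1049 and a log2 difference of 9.27.

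Potri.013G011700.1 (chromosome number 13, 612 bp) showed the reverse order of hybrids in D2. It had 388 and 250.2 RPKM in hybrid 89 and 732 and 452 RPKM in hybrid 85 there, and no more than 1.85 RPKM in any C or D1 plant. Its ratio of D2 to C means was 705, and its log2 difference was 8.13. Potri.015G099200.1 (chromosome number 15, 537 bp) was at 0 reads in each of the 4 C plants. It had 515 and 161 RPKM in hybrid 89 and 204 and 133 RPKM in hybrid 85 in D2. Set against 3 reads over the whole C group, the pooled D2 level was at least 909-fold higher.

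In all, 34 of the 226 genes had 0 reads in every C plant, and 23 of these also had 0 reads in every D1 plant. Their D2 means ranged from 8.23 to 253 RPKM. Against a floor of 3 reads over the C group their pooled D2 levels were at least 24.8-fold to at least 909-fold higher, with a median bound of 154-fold. At this depth a transcript present in C below that floor would not be detectable, so an absence in watered leaves is not shown. A further 35 genes had 1 to 3 reads over the C group, which brings those with at most 3 reads to 69.

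Other genes of the group were already well read in watered leaves. Potri.014G161300.1 (chromosome number 14, 1164 bp) had 71.5 and 69.5 RPKM in hybrid 89 and 79.1 and 91.8 RPKM in hybrid 85 in C. In D1 it had 112 and 82.6 RPKM in hybrid 89 and 81.5 and 79.5 RPKM in hybrid 85. In D2 it had 3133 and 1654 RPKM in hybrid 89 and 1439 and 974 RPKM in hybrid 85. Its ratio of means was 23.1, and both hybrids moved together. Potri.014G193800.1 (chromosome number 14, 1044 bp) had 927 ± 175 RPKM in D2 and 28.6 ± 5.48 RPKM in C, with D2 values of 1105 and 694 RPKM in hybrid 89 and 999 and 909 RPKM in hybrid 85. Potri.013G159600.1 (chromosome number 13, 759 bp), the most abundant of the 226 in C, had 1429 ± 948 RPKM in D2 and 153 ± 7.84 RPKM in C. Over the 23 genes with at least 10 RPKM in C, the ratio of D2 to C means had a median of 13.0 and ranged from 6.50 to 33.8. For genes at these levels the added 1 RPKM has little weight, so their ratios and log2 differences describe nearly the same change.

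**Figure D3:**
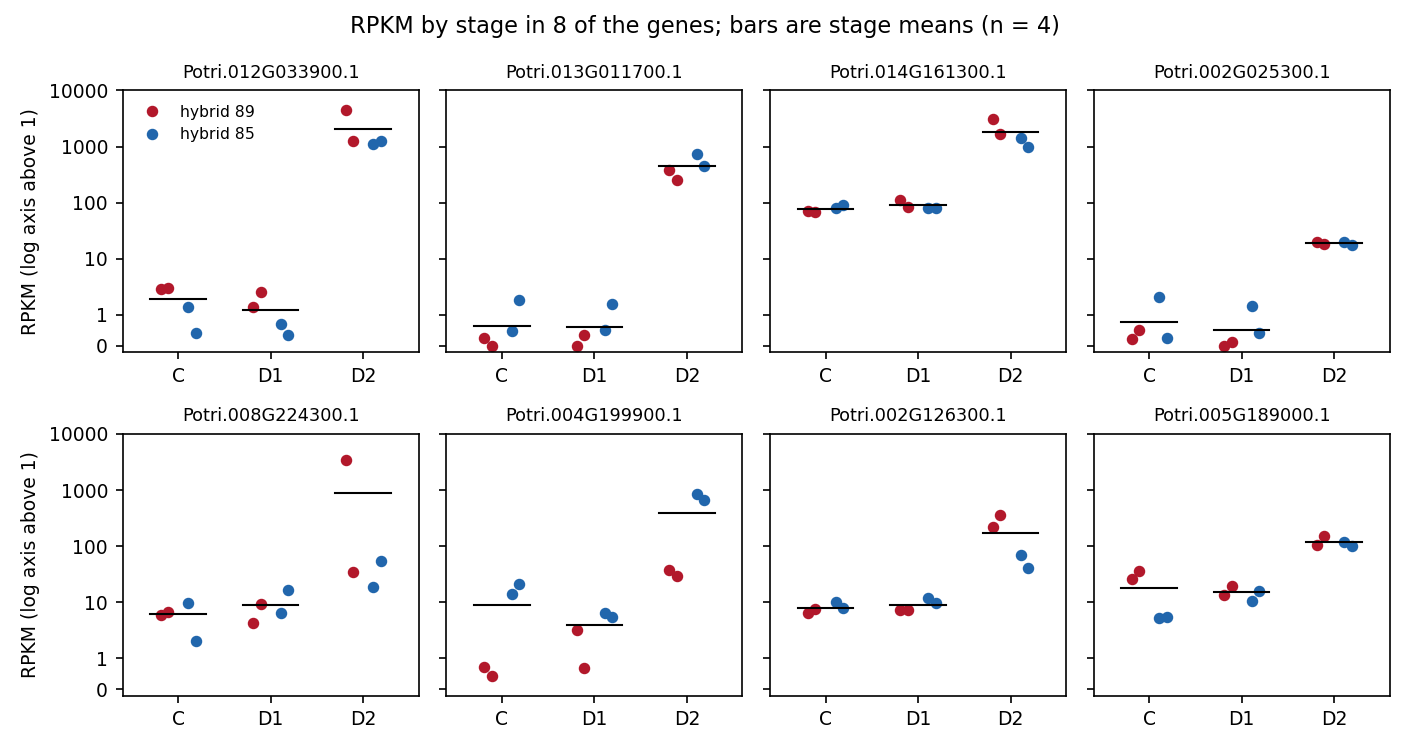
RPKM of 8 of the genes in each library by stage, on an axis that is logarithmic above 1 RPKM, with hybrid 89 left of hybrid 85 in each stage and bars for the stage means (n = 4). Potri.012G033900.1 stands at no more than 3.05 RPKM in C and D1 and at no less than 1109 RPKM in D2, and Potri.004G199900.1 shows hybrid 85 far above hybrid 89 in D2.

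Under moderate drought the 226 genes scattered around the control level in either direction. Their difference between D1 and C had a median of 0.08 on the log2 scale, against 0.14 over all genes tested, and the choice kept it between -0.49 and 0.50. Limma called 0 of the 225 tested in D1 against C, where 5.56% of all genes were called, and called all 225 in D2 against C, where 40.8% were called and 21.6% called higher. Both counts follow from the choice and nothing is read from them. In single D1 plants, 57 and 54 genes exceeded every C plant in hybrid 89 and 61 and 43 did in hybrid 85. The share of all genes was not computed for single plants, so these counts are a description only. All 4 D1 plants exceeded all C plants in 1 gene, Potri.014G141900.1, at 21.2 and 20.7 RPKM in hybrid 89 and 20.5 and 19.7 RPKM in hybrid 85, where the highest C plant had 19.7 RPKM. The same pattern held in 9.33% of all genes tested. The limit on D1 makes it rarer among the 226 by choice, so the lower count is no result. Among the 125 genes with at least 20 reads over C and D1, 7 had a ratio of D1 to C reads of 2 or more and 5 a ratio of 0.5 or less, with a median ratio of 1.11.

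A flat stage mean could hold hybrids that moved apart. Potri.005G189000.1 (chromosome number 5, 273 bp) had 26.3 and 36.1 RPKM in hybrid 89 and 5.23 and 5.53 RPKM in hybrid 85 in C. In D1 it had 13.7 and 19.6 RPKM in hybrid 89 and 10.4 and 16.0 RPKM in hybrid 85, so the hybrids no longer stood apart and their mean was nearly that of C. In D2 both hybrids stood between 101 and 154 RPKM. Potri.002G203500.1 (chromosome number 2, 276 bp) had 41.4 and 34.4 RPKM in the D1 plants of hybrid 89, below its C plants at 53.7 and 58.6 RPKM. In hybrid 85 the D1 plants had 271 and 129 RPKM, above the C plants at 76.9 and 56.1 RPKM. Whether the D1 change differs between the hybrids was tested for each gene. Limma called 0 of 225 at an adjusted p below 0.05, as it did 0 of all 24117 genes (0%). At an unadjusted p below 0.05 there were 21 of the 225 (9.33%), against 16.8% of all genes. The smallest of these p-values belonged to Potri.005G189000.1, with a difference between hybrids of -2.00 ± 0.45 (SE, limma adjusted p = 0.104, and 0.0463 to 0.327 over the alternatives). The lower share among the 225 is no result, because many of the chosen genes were barely read in C and D1. In 23 of them no C or D1 plant had a read, so their D1 interaction is 0 by construction. The C mean was under 1 RPKM in 123.

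The values next to the thresholds show how sharp the choice is. Just inside the limit on D2, Potri.002G022600.1 and Potri.003G197400.1 had differences of 3.004 and 3.005, and just outside it Potri.011G135000.1 had 2.998 and Potri.016G037000.1 had 2.995. Just inside the limit on D1, Potri.008G224300.1 and Potri.002G050800.1 had differences of 0.498 and 0.496, and just outside it Potri.017G073700.1 had 0.502 and Potri.006G037900.1 had 0.507. Of the 555 genes that met both D2 criteria, 300 had a D1 difference of 0.5 or more and 29 one of -0.5 or less. The gene with the smallest gap, Potri.009G038400.1, had 47.1 and 26.2 RPKM in hybrid 89 in D2 but 1.82 and 0.215 RPKM in hybrid 85, with 0.171 RPKM in 1 D1 plant. It was the only one of the 226 below the filter for testing, which leaves 225.

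Plants differed more in these genes than in others under severe drought. The SD over the 4 D2 plants had a median of 0.98 on the log2 scale, against 0.49 over all genes tested. Replicate 1 of hybrid 89 was the highest D2 plant in 153 of the 226 genes (67.7%, against 26.3% of all genes tested), and it was at least 2-fold above every other D2 plant in 93 (41.2%, against 7.81%). Replicate 2 of hybrid 85 was the lowest D2 plant in 140 genes (61.9%, against 21.5%). The choice used the D2 values of these same plants, so the spread and these shares are not independent of it. Without replicate 1 of hybrid 89, 45 of the 226 genes no longer met the limit on the D2 mean. In the other 329 genes that met both D2 criteria, replicate 1 of hybrid 89 was highest in 62.9%. They were taken by the same criteria on the same D2 plants, so this share is no independent support. The labels used here give no water content for single plants.

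Single genes ranged from near identity of the D2 plants to a wide spread. Potri.002G025300.1 (chromosome number 2, 1515 bp) had the smallest SD, 0.09, with 20.0 and 18.0 RPKM in hybrid 89 and 19.9 and 17.5 RPKM in hybrid 85. Potri.010G239100.1 (chromosome number 10, 468 bp) followed with 82.8 and 83.2 RPKM in hybrid 89 and 102 and 106 RPKM in hybrid 85. These genes reached similar levels in all D2 plants although the group as a whole did not. In Potri.010G239100.1 both plants of hybrid 85 still lay above both of hybrid 89. Potri.008G224300.1 (chromosome number 8, 1107 bp) had the largest SD, 3.39, with 3440.1 and 34.5 RPKM in hybrid 89 and 18.8 and 53.9 RPKM in hybrid 85. Its large D2 mean therefore rests on 1 plant. The other D2 plants had 18.8 to 53.9 RPKM, where its highest D1 value was 16.4 RPKM. Potri.011G158100.1 (chromosome number 11, 1599 bp) came next, with 735 and 69.8 RPKM in hybrid 89 and 13.6 and 5.86 RPKM in hybrid 85.

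In the D2 plants sampled, the genes stood on average higher in hybrid 89 than in hybrid 85. The mean D2 level was higher in hybrid 89 in 176 genes and lower in 50, whereas in C it was higher in 78 and lower in 114, with no reads in the remaining 34. The share of all genes was not computed for these counts. In C, 35 of the genes had only 1 to 3 reads, and the deepest C library was of hybrid 85. The order in C is therefore not read as a reversal of the hybrids. Both D2 plants of hybrid 89 exceeded both of hybrid 85 in 112 genes (49.6%, against 24.7% of all genes tested), and both lay below in 28 (12.4%, against 23.2%). The hybrids overlapped in the other 86. The median difference in D2, on the log2 scale, was 1.01 in the 225 tested genes and 0.00 in all genes. The first plant of hybrid 89 stood a median of 1.46 above the hybrid 85 mean and the second plant 0.50 above it. Every gene was read in the same few plants, so the counts of genes are not independent observations of the hybrids. The choice also used the D2 values of these plants. A difference between single plants therefore cannot be told apart here from a difference between the hybrids.

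In the test of the hybrids within D2, limma called 51 of 225 genes (22.7%, against 5.45% of all genes), with 43 higher in hybrid 89 (2.88% of all genes were) and 8 lower (2.57% of all genes). The called genes showed no overlap of the hybrids in D2. The 43 had differences of 1.42 to 4.51, with a median of 2.44. The common spread of this fit comes from all 3 stages. In these genes the median SD between plants of 1 hybrid was 0.29 in C, 0.31 in D1 and 0.72 in D2 (0.32, 0.27 and 0.40 over all genes tested), so the p-values are too small for the spread seen in D2. In a fit on the 4 D2 libraries alone, limma called 0 of the 225 and 0 of all genes, and 67 of the 225 (29.8%, against 14.1%) had an unadjusted p below 0.05. The count was 18 without replicate 1 of hybrid 89 and 114 without its replicate 2. It was 27 and 5 without replicates 1 and 2 of hybrid 85. The choice used the D2 values of these same plants, so the share called is not independent of it.

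**Figure D4:**
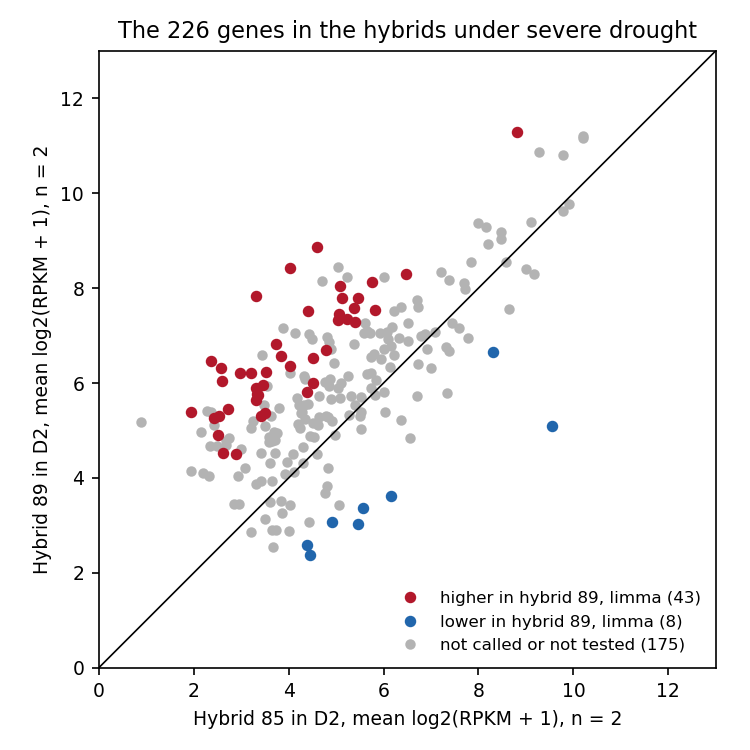
Mean log2(RPKM + 1) of the 226 genes in D2 in hybrid 89 (vertical) against hybrid 85 (horizontal), n = 2 plants each, with the line of equal level. Points above the line, 43 of them called by limma, are higher in hybrid 89, and 8 called points lie below it.

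The clearest case was lower in hybrid 89. Potri.004G199900.1 (chromosome number 4, 918 bp) had 0.710 and 0.430 RPKM in hybrid 89 and 13.8 and 21.0 RPKM in hybrid 85 in C. In D2 it had 38.0 and 29.1 RPKM in hybrid 89 and 846 and 656 RPKM in hybrid 85. The hybrids stood apart in both stages. In each hybrid both D2 plants lay above both C plants, which the choice requires of every gene. The difference within D2 was -4.44 ± 0.41 (SE, limma adjusted p = 0.000872, and 0.000268 to 0.237 over the alternatives, the highest in the fit on D2 alone). With stage in the model over all 12 plants it was -3.12 ± 0.42 (limma adjusted p = 0.00197, and 6.04e-05 to 0.00761 over the alternatives). Its neighbour by ID number, Potri.004G200000.1 (249 bp), is also one of the 226 and had the opposite order in D2, with 212 and 232 RPKM in hybrid 89 and 64.0 and 17.6 RPKM in hybrid 85. Potri.010G109300.1 (chromosome number 10, 771 bp) was likewise lower in hybrid 89 in D2, at 9.94 and 12.9 RPKM against 63.7 and 76.6 RPKM in hybrid 85. Its difference was -2.52 ± 0.36 (limma adjusted p = 0.00654), and the call was lost without replicate 2 of hybrid 85 in D2 and in the fit on D2 alone.

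Among the genes higher in hybrid 89, Potri.004G017700.1 (chromosome number 4, 1428 bp) was at 0 reads in every C plant. In D2 it had 41.7 and 39.9 RPKM in hybrid 89 and 4.03 and 1.97 RPKM in hybrid 85, so that the plants of each hybrid lay close together and the hybrids far apart. The difference within D2 was 3.44 ± 0.35 (SE, limma adjusted p = 0.00126, and 0.000343 to 0.237 over the alternatives). Potri.002G126300.1 (chromosome number 2, 1320 bp) was read at 6.29 to 9.95 RPKM in all C plants. In D2 it had 222 and 352 RPKM in hybrid 89 and 69.7 and 40.5 RPKM in hybrid 85. Potri.005G216300.1 (chromosome number 5, 2310 bp) had 73.4 and 74.9 RPKM in hybrid 89 and 10.3 and 10.7 RPKM in hybrid 85 in D2. Potri.005G000800.1 (chromosome number 5, 393 bp) had no read in any C or D1 plant, 27.1 and 51.8 RPKM in hybrid 89 in D2 and 3.38 and 5.57 RPKM in hybrid 85.

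Whether the D2 change itself differed between hybrids was tested as an interaction. Limma called 7 of 225 genes (3.11%, against 0.469% of all genes), and in all 7 the change was larger in hybrid 89, as it was in 0.34% of all genes. They were Potri.003G168800.1, Potri.004G017700.1, Potri.002G126300.1, Potri.005G250800.1, Potri.003G122400.1, Potri.009G128800.1 and Potri.008G159100.1. The spread again comes from all stages, so these p-values too are too small for the spread seen in D2. For Potri.004G017700.1, which had no read in C, the interaction is the same number as the difference within D2 and adds nothing to it. In Potri.003G168800.1 (chromosome number 3, 1509 bp) hybrid 89 had 178 and 136 RPKM in D2 and 7.02 and 4.97 RPKM in C, and hybrid 85 had 46.0 and 36.9 RPKM in D2 and 11.2 and 16.8 RPKM in C. The order of the hybrids was thus turned round between the stages, and the interaction was 2.98 ± 0.42 (SE, limma adjusted p = 0.0245, and 0.00249 to 0.134 over the alternatives). That call was lost when any of 8 libraries was left out. The count of calls was 0 to 3 when any 1 of 11 libraries was left out, and 80 without replicate 2 of hybrid 89 in D2. Quantile normalization and median-ratio scaling each left 2 calls, and the median interaction of all genes, 0.21, moved to 0.01 under the first and to -0.03 under the second.

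Across all stages few of the genes were called between the hybrids. With stage in the model limma called 6 of 225 (2.67%, against 2.94% of all genes), which is a share near that of all genes. Of the 6, 4 were lower in hybrid 89 (1.97% of all genes were) and 2 higher (0.974% of all genes). Both the share and the balance changed with voom on the recovered reads, which called 19 of 225 (8.44%, against 3.98% of all genes), 14 higher and 5 lower in hybrid 89. Higher calls also outnumbered lower ones, by 1 gene each time, with quantile normalization, library quality weights and a pseudocount of 0.1, and without replicate 1 of hybrid 89 in C or its replicate 2 in D2. No balance is read from the 6 calls. Besides Potri.004G199900.1, the genes lower in hybrid 89 were Potri.015G001300.1, Potri.010G109300.1 and Potri.003G216400.1. Those higher were Potri.002G022600.1 and Potri.005G216300.1. Potri.002G022600.1 (chromosome number 2, 312 bp) had 8.35 and 11.4 RPKM in hybrid 89 and 1.83 and 1.21 RPKM in hybrid 85 in C. In D1 it had 23.1 and 15.9 RPKM in hybrid 89 and 1.01 and 0 RPKM in hybrid 85, and in D2 77.8 and 32.6 RPKM in hybrid 89 and 42.6 and 25.0 RPKM in hybrid 85. The hybrids stood apart in C and D1 and overlapped in D2, and the highest D1 plant nearly reached the lowest D2 plant. The difference was 2.18 ± 0.45 (SE, limma adjusted p = 0.0231, and 0.00773 to 0.0922 over the alternatives). The call was lost without replicate 2 of hybrid 89 in C, without either D1 plant of hybrid 89 and without replicate 1 of hybrid 85 in D1. Leaving out 1 library ended the other 4 calls, Potri.004G199900.1 apart, in 6 to 11 of 12 cases each.

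The choice was then repeated in the 6 libraries of 1 hybrid and the genes were read in the 6 of the other, which had no part in that choice. In hybrid 89, 420 genes met all criteria. In hybrid 85, 141 of them (33.6%) met both D2 criteria, against 2.10% of all genes tested, and their D2 difference had a median of 2.42, against -0.06. The D1 criterion was met in hybrid 85 by 239 (56.9%), against 55.5% of all genes tested. In hybrid 85, 156 genes met all criteria. In hybrid 89, 119 of these (76.3%) met both D2 criteria, against 3.93%, with a median difference of 4.53, against 0.18, and 101 (64.7%) met the D1 criterion, against 49.8%. The rise in D2 thus recurred in the other hybrid far more often than among all genes. The share that met the D1 criterion was about that of all genes in hybrid 85 and above it in hybrid 89. No recurrence of a flat D1 level is read from these shares. Many of the 226 genes were barely read in C and D1, where the added 1 RPKM holds D1 near C. Of the 226 genes, 77 met all criteria in both hybrids taken singly, 78 in hybrid 89 alone, 32 in hybrid 85 alone and 39 in neither. The D1 criterion failed in 60 of the 226 within hybrid 89 and in 58 within hybrid 85.

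Some of the genes lay next to each other by ID number. With members at most 3 places apart in the order of IDs counted as a run, there were 12 runs with 27 genes, of which 10 held 2 genes, 1 held 3 and 1 held 4. Of the 452 places directly before and after a member, 22 (4.87%) held another member, against 0.547% of all genes. Of the 244 tested neighbours that were not members, 85 (34.8%) were higher in D2 than in C by limma, against 21.6% of all genes.

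The run of 4, Potri.004G006900.1, Potri.004G007000.1, Potri.004G007100.1 and Potri.004G007200.1, has coding lengths of 450, 459, 468 and 468 bp. None had a read in any C plant, and together they had 1 read in D1. Potri.004G006900.1 had 115 and 75.2 RPKM in hybrid 89 and 86.5 and 31.3 RPKM in hybrid 85 in D2. Potri.004G007200.1 had 116 and 46.7 RPKM in hybrid 89 and 19.9 and 2.00 RPKM in hybrid 85. In all 4 genes replicate 1 of hybrid 89 was the highest and replicate 2 of hybrid 85 the lowest.

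The run of 3 lies at Potri.017G052000.1, Potri.017G052100.1 and Potri.017G052400.1, with coding lengths of 1449, 1452 and 1449 bp. Potri.017G052400.1 had 152 and 68.3 RPKM in hybrid 89 and 30.8 and 22.6 RPKM in hybrid 85 in D2, and at most 0.525 RPKM in C and D1. Between them lies Potri.017G052200.1 (579 bp), not a member, which rose too, with a difference between D2 and C of 2.84, under the limit of 3. Potri.017G052300.1, also between them, of 1449 bp and not a member, moved the other way. It had 0 and 2.11 RPKM in hybrid 89 and 0 and 1.94 RPKM in hybrid 85 in D2, against 16.3 and 27.0 RPKM in hybrid 89 and 22.5 and 15.1 RPKM in hybrid 85 in C. Its difference between D2 and C was -3.57 on the log2 scale, given as a description because the gene was picked for its values. Genes of like length and neighbouring IDs may be near-identical copies. The sources used here do not say how reads that fit several genes were counted, so levels of single genes in these runs are uncertain.

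**Figure D5:**
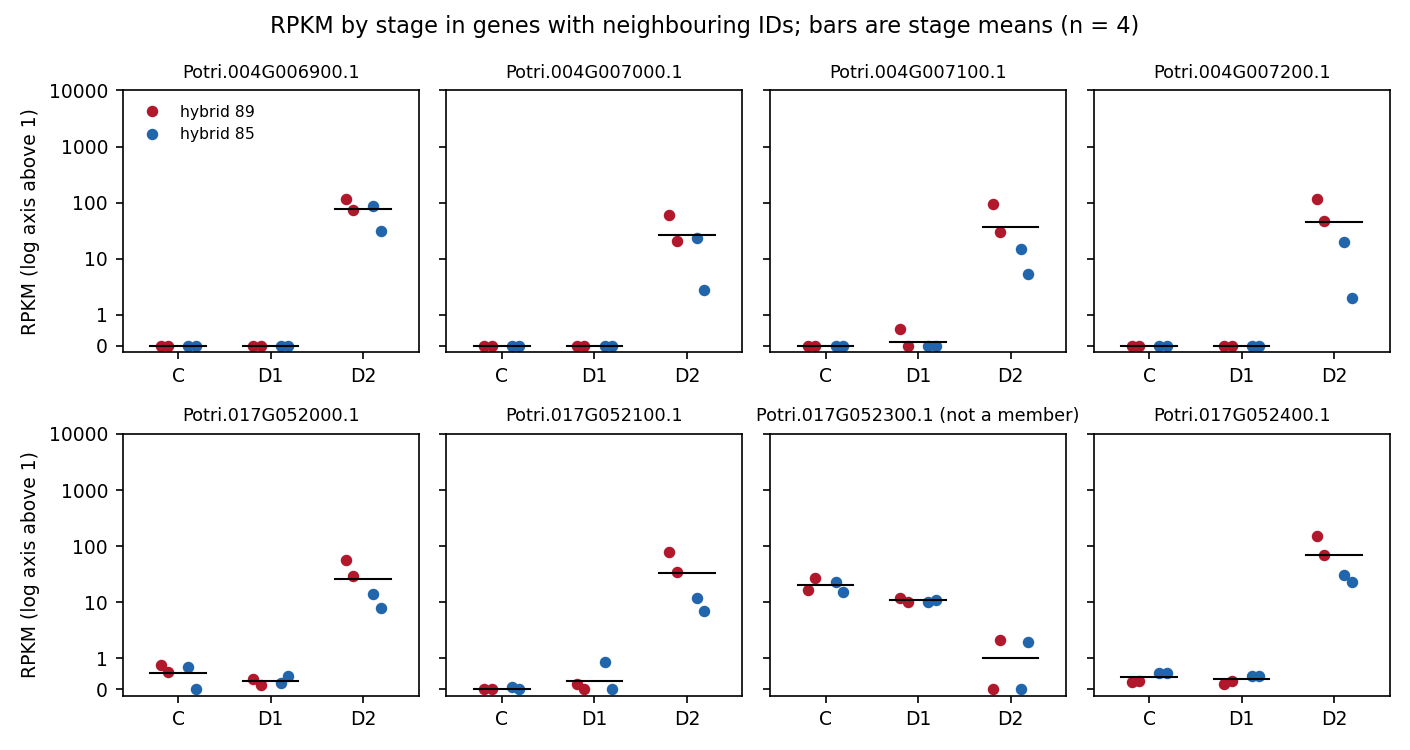
RPKM of genes with neighbouring IDs in each library by stage, on an axis that is logarithmic above 1 RPKM, with hybrid 89 left of hybrid 85 and bars for the stage means (n = 4). The 4 genes of the upper row have no reads in C, and Potri.017G052300.1 in the lower row, not a member, is the one gene shown whose D2 plants lie below its C plants.

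The genes were spread over all chromosome numbers. Their share of the genes tested was 0.450% on chromosome number 18 and 1.47% on chromosome number 5, with 0.414% among IDs without a chromosome number. Their coding lengths had a median of 954 bp, against 1107 bp over all genes tested, and ranged from 129 to 3885 bp.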

How the data were processed

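Leaf RNA libraries of 12 plants were made with a TruSeq kit and read on a HiSeq2000, per the labels. The authors deposited RPKM values for 41335 gene IDs, per the file headers. The submitters' processing notes name Trimmomatic 0.32. Aligner, counting tool, strand use, genome build and annotation: not given in the sources used here. The 3 further value columns were not used.

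RPKM values of a library are whole multiples of 1 read for each gene. Reads and coding lengths recovered from these steps came out whole for 100.0% of values, to within 0.01 reads. Lengths were recovered in steps of 3 bp, so a multiple of 3 bp is given by the method and is no evidence of a coding length. Without that step, the length was still a multiple of 3 bp in all 166 chosen genes with 20 or more reads in each D2 library. For all other genes the name coding length is an assumption. The recovery of reads was tested on simulated data.

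Values were tested as log2(RPKM + 1) with limma 3.58.1 (trended variance) in R 4.3.3. Genes that reached 1 RPKM in 4 or more libraries entered (24117), with Benjamini-Hochberg adjustment over all of them and a threshold of 0.05. The hybrid difference used stage and hybrid as terms, and the other tests used 6 groups of 2 libraries. The authors' replicate numbers did not pair the plants. Alternatives were other pseudocounts, scalings, filters and variance models, a replicate block, voom on the recovered reads and each library left out. The fit on D2 alone was added after seeing the data.

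The genes, the tests and the lists were chosen with earlier results of these data known. The rule for named genes took the largest rises, the called genes of each test, genes at the thresholds, runs of IDs, the extremes of spread and the highest D2 levels. It was shortened here to a selection of these, because the IDs have no names. Potri.004G200000.1, Potri.014G141900.1, Potri.002G203500.1, Potri.017G052200.1 and Potri.017G052300.1 were also described after their values were seen. The planned lists of genes by function and of cell type markers could not be matched to IDs and gave no result. Intervals and floors from reads cover counting error only.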

Additional observations from a re-analysis of the deposited data

Results flagged for a closer look

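Within D2, replicate 1 of hybrid 89 stood above the other plants in the share of its reads held by the 226 genes, at 5.40%. The share was 2.19% in replicate 2 of hybrid 89 and 2.06% and 1.54% in hybrid 85. The gap of replicate 1 of hybrid 89 to the next plant was 0.832 of the range. It passed narrowly, since the critical value of Dixon's test for 4 values at the 95% level is 0.829. For this share the test used the percentages themselves and not the log2 scale. In Potri.012G033900.1 the same plant had 4494 RPKM, and the other D2 plants had 1109 to 1244 RPKM. Over all 226 genes on the log2 scale, Dixon's test singled out the highest D2 plant in 6, each time this plant, and the lowest in 4, of which 3 were replicate 2 of hybrid 85. These are 4.42% of the genes, where chance gives about 5%.

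The D2 change differed between the hybrids, by the limma interaction, in 7 genes, with a larger change in hybrid 89 in each. The difference of the changes, on the log2 scale, was 2.98 in Potri.003G168800.1 and 3.44 in Potri.004G017700.1 (limma adjusted p = 0.0245 in both). It was 2.71 in Potri.002G126300.1 and 4.31 in Potri.005G250800.1 (limma adjusted p = 0.0403 in both). It was 2.71 in Potri.003G122400.1 and 4.31 in Potri.009G128800.1 (limma adjusted p = 0.0494 in both), and 4.19 in Potri.008G159100.1 (limma adjusted p = 0.0498). In the genes of this group both D2 plants of hybrid 89 lay above both of hybrid 85. Each of the 7 calls was lost in at least 9 of its alternatives. Their p-values use the spread of all stages and are too small for the spread seen in D2.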

How the results depend on the processing

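The differences between hybrids given for single genes kept their sign under every alternative run. The number of genes chosen stayed within 1.5 times of 226, from 190 to 297, and 141 of the 226 were still chosen with a pseudocount of 0.1. The other 85 all failed the D1 criterion there, 60 with D1 too high and 25 with D1 too low. For these genes the nearness of D1 to C thus depends on the added 1 RPKM. The median difference between D2 and C was 5.55 with a pseudocount of 0.1, and 3.55 to 4.22 when 1 library was left out. The calls of the hybrid tests were less stable. For the hybrid difference (6 calls) the count was 3 with a pseudocount of 0.1, 2 without a filter, 19 with voom (14 higher and 5 lower in hybrid 89, against 2 and 4) and 1 to 5 when 1 library was left out. Within D2 (51 calls) it was 16 with a pseudocount of 0.1, 20 with library quality weights, 0 in the fit on D2 alone and 5 to 114 when 1 library was left out, with every count beyond 1.5 times of 51 coming from a left-out D2 library. For the interaction with D2 (7 calls) it was 1 with pseudocounts of 0.5 and 0.1, 14 with 2, 2 with either rescaling (quantile or median-ratio), 3 with a filter at 5 RPKM, 0 with library quality weights and 3 with voom. Leaving out 1 library gave 0 to 80, with 3 without replicate 1 of hybrid 85 in C. It gave 2 without either D1 plant of hybrid 89 and without replicate 1 of either hybrid in D2, and 0 without each of the other libraries apart from the 80 without replicate 2 of hybrid 89 in D2. For the interaction with D1 (0 calls) it was 1 with library quality weights and 0 to 1 when 1 library was left out, and the median of all genes moved from 0.30 to 0.00 with quantile normalization. The cause of these shifts was not tested. Replicate numbers did not pair the plants, with correlations of deviations between stages of -0.04 to 0.08. With the replicate block, the counts were 3 for the hybrid difference, 52 within D2, 2 for the interaction with D2 and 0 for that with D1. Depth limits the low genes: a median C level of 0.685 RPKM is a few reads per library.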
